A study of Homo sapiens with 4 samples.

Results

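Peaks on unplaced and unlocalised contigs of the human genome build hg19 are described here for 3 chromatin immunoprecipitation (ChIP-seq) peak lists of H69 cells. The members were chosen by name alone, as every peak whose sequence name contains Un_gl (a contig of unknown chromosome) or _random (a contig of known chromosome but unknown position). They number 819 of 61551 peaks. Of these, 180 of 2471 came from the YAP list made with the Santa Cruz antibody, 365 of 10118 from the YAP list made with the Avruch antibody, and 274 of 48962 from the TEAD1 list. H69 is a human cell line, known from the study as an immortalised line of bile duct cells. The labels name no treatment or genotype, and a peak list holds no expression by which cell type markers could be checked. Cells were fixed with formaldehyde and their chromatin was sonicated. One library was made per antibody (1 each), so there is no replicate check for any value. A library with unrelated IgG was not analysed here.

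YAP is a transcriptional coactivator that is held back by the kinases of the Hippo pathway and has no DNA-binding domain of its own. TEAD1 is one of the DNA-binding proteins through which it reaches the genome. Contigs that an assembly could not place tend to be rich in multi-copy sequence, such as satellite arrays, segmental duplications and ribosomal DNA. Ribosomal DNA is the tandem array that encodes the ribosomal RNAs: each unit holds the gene of the precursor of the small- and large-subunit RNAs and a long intergenic spacer. The cell has many more units than the assembly. In hg19 the contig Un_gl000220 carries copies of it. In the RefSeq gene table of GRCh38.p14, another build, the precursor gene RNA45SN5 lies outside the chromosomes with RNA18SN5, RNA5-8SN5 and RNA28SN5. It is followed by the pseudogenes LOC100286895, RNA18SP3, RNA5-8SP8 and LOC124905315. Only these names and their order were used, so no peak was assigned to a gene.

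Scores are the authors' values with no stated unit, and they rank peaks within a list only. The sources used here do not state read depth, the control library or how reads that align to several places were treated, and their part in the values below was not tested. Intervals are Wilson 95% intervals over peaks and cover counting error only. Peaks of 1 contig are neighbours and not independent, so contigs and placed chromosomes are set side by side without a test.

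Contigs held 7.28% of the Santa Cruz list (95% interval 6.32 to 8.38), 3.61% of the Avruch list (3.26 to 3.99) and 0.560% of the TEAD1 list (0.497 to 0.630). By length they weighed more. Contig peaks covered 230.8 kb of 1136 kb in the Santa Cruz list (20.3%), 293.4 kb of 2471 kb in the Avruch list (11.9%) and 278.7 kb of 16396 kb in the TEAD1 list (1.70%).

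Peaks were found on 45 contigs in any list. Of these, 16 carried peaks of all 3 lists, and they held 141 Santa Cruz peaks (78.3% of that list's contig peaks), 281 Avruch peaks (77.0%) and 204 TEAD1 peaks (74.5%). TEAD1 alone was found on 10 contigs with 18 peaks in all, Avruch alone on 4 contigs with 7 peaks, and Santa Cruz alone on 19_gl000208_random with 5 peaks. Avruch and TEAD1 without Santa Cruz were found on 11 contigs. Both YAP lists without TEAD1 were found on 9_gl000199_random, Un_gl000232 and Un_gl000245. The 3 fullest contigs of each list held 113 Santa Cruz peaks (62.8%), 195 Avruch peaks (53.4%) and 107 TEAD1 peaks (39.1%). The plot of length under peaks shows how the contigs divided between the lists.

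**Figure D1:**
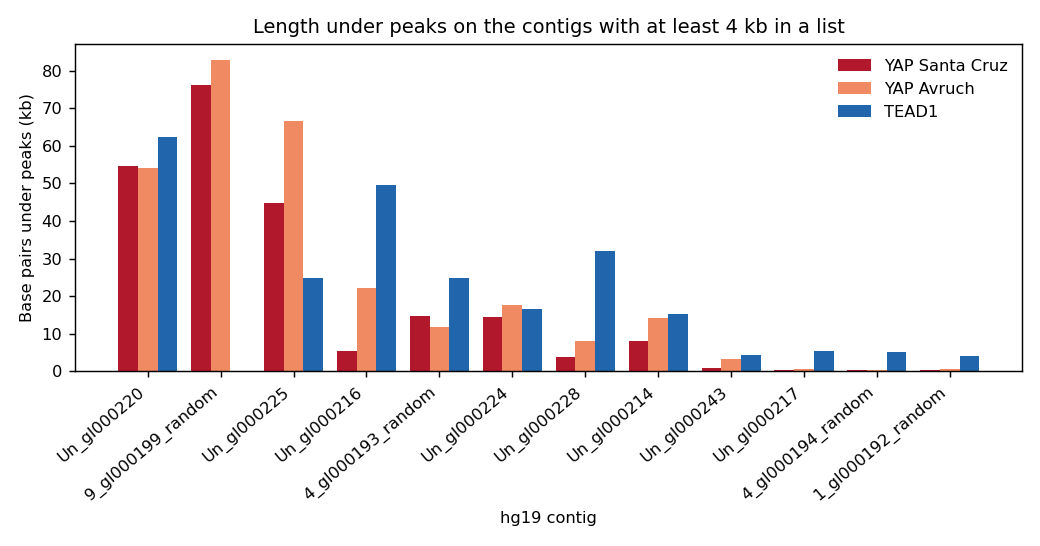
Length under peaks in kb (y axis) on each contig with at least 4 kb in a list (x axis), as bars for the YAP Santa Cruz, YAP Avruch and TEAD1 lists, 1 library each. Un_gl000220 stands at 54.6, 54.2 and 62.2 kb, 9_gl000199_random at 76.3, 82.9 and 0 kb, and Un_gl000216 at 5.45, 22.1 and 49.4 kb.

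Contig peaks were wide and close together. The median width was 683 bp on contigs and 164 bp on placed chromosomes in the Santa Cruz list, 425 and 149 bp in the Avruch list, and 507.5 and 274 bp in the TEAD1 list. In the Santa Cruz list 61 of 180 contig peaks had a width of 1 kb or more (33.9%, 27.4 to 41.1), where the whole list had 8.13%. For Avruch they were 65 of 365 (17.8%, 14.2 to 22.1) against 2.33% in the whole list, and for TEAD1 61 of 274 (22.3%, 17.7 to 27.6) against 1.08%. Contigs therefore carried 30.3% of all wide Santa Cruz peaks, 27.5% of all wide Avruch peaks and 11.6% of all wide TEAD1 peaks.

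Over 50% of the gaps between neighbouring contig peaks of a list were at most 1 kb long. Santa Cruz had 89 such gaps among 160 (55.6%), Avruch 223 among 331 (67.4%) and TEAD1 120 among 237 (50.6%). On placed chromosomes the shares were 11.8%, 11.6% and 10.1%. The smallest gaps were 2, 1 and 1 bp. With such gaps joined, 91 Santa Cruz, 142 Avruch and 154 TEAD1 stretches remained.

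Scores on contigs spread widely. The lowest contig scores in the Santa Cruz, Avruch and TEAD1 lists were 50.02, 50.19 and 50.2, and the highest were 3095.31, 1633.28 and 3219.44. The medians were 78.0, 89.5 and 92.9 on contigs and 58.8, 63.5 and 67.0 on placed chromosomes. Among the top 1% of each list by score were 9 contig peaks for Santa Cruz (5% of them, 2.65 to 9.23), 25 for Avruch (6.85%, 4.68 to 9.92) and 17 for TEAD1 (6.20%, 3.91 to 9.71). The same class held 0.971%, 0.998% and 0.999% of the whole lists. Without Un_gl000220, described below, the Santa Cruz share was 2.89%. Wide contig peaks had median scores of 128.0, 324.1 and 346.8 in these lists, and narrower ones 67.0, 80.2 and 74.8.

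Overlap between the lists, counted from 1 shared bp, was frequent on contigs. Of the Santa Cruz contig peaks, 133 of 180 overlapped an Avruch peak (73.9%, 67.0 to 79.8), against 28.2% in the whole list and 24.6% on placed chromosomes. From the Avruch side, 158 of 365 overlapped a Santa Cruz peak (43.3%, 38.3 to 48.4), against 8.16% in the whole list and 6.85% on placed chromosomes.

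Overlap with TEAD1 was found for 82 of 180 Santa Cruz contig peaks (45.6%, 38.4 to 52.8, whole list 30.9%) and for 106 of 365 Avruch contig peaks (29.0%, 24.6 to 33.9, whole list 19.4%). Of the 274 TEAD1 contig peaks, 59 overlapped a Santa Cruz peak (21.5%, 17.1 to 26.8, whole list 1.14%) and 60 an Avruch peak (21.9%, 17.4 to 27.2, whole list 3.11%). No overlap with either other list was left for 24 Santa Cruz peaks (13.3%, whole list 59.8%), 165 Avruch peaks (45.2%, whole list 77.6%) and 202 TEAD1 peaks (73.7%, whole list 96.4%). Most TEAD1 contig peaks thus stood apart from YAP, though a smaller share than in the whole list, while few Santa Cruz contig peaks stood alone.

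**Figure D2:**
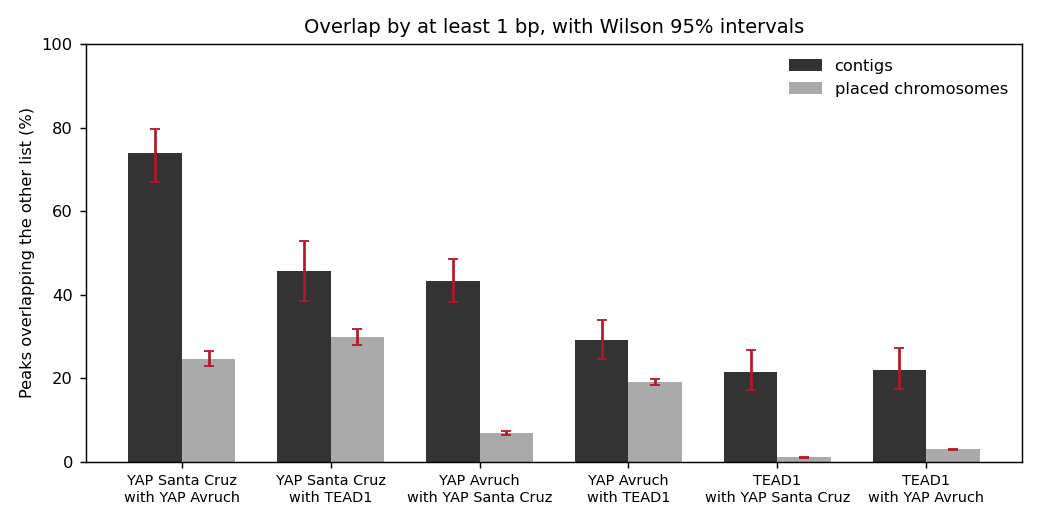
Share of peaks in percent (y axis) that overlap a peak of another list by at least 1 bp, for each ordered pair of lists (x axis), on contigs (dark bars) and placed chromosomes (light bars), with Wilson 95% intervals as error bars. Santa Cruz with Avruch stands at 73.9% on contigs and 24.6% on placed chromosomes, and TEAD1 with Santa Cruz at 21.5% and 1.02%.

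Width bears on these shares, and the pairs differed in how. Among peaks under 1 kb, 61.3% of Santa Cruz contig peaks overlapped Avruch (73 of 119), and 20.1% did on placed chromosomes. Among wide Santa Cruz peaks the shares were close, with 98.4% on contigs (60 of 61) and 94.3% on placed chromosomes (132 of 140). For Avruch with Santa Cruz, wide peaks gave 81.5% on contigs (53 of 65) and 85.4% on placed chromosomes (146 of 171). Narrow Avruch peaks gave 35.0% and 5.45%. For Santa Cruz with TEAD1, the shares of narrow peaks were 51.3% on contigs and 27.9% on placed chromosomes. Among peaks of 1 kb or more, 34.4% of Santa Cruz contig peaks (21 of 61, 23.7 to 47.0) and 57.9% of placed ones (81 of 140, 49.6 to 65.7) overlapped TEAD1. For wide Avruch peaks the shares with TEAD1 were 27.7% on contigs (18 of 65, 18.3 to 39.6) and 56.7% on placed chromosomes (97 of 171, 49.2 to 63.9). Of these contig peaks, 25 Santa Cruz and 29 Avruch peaks lay on 9_gl000199_random, which holds no TEAD1 peak, so that leaving it out can only raise the shares. Without it, 21 of 36 wide Santa Cruz peaks (58.3%, 42.2 to 72.9) and 18 of 36 wide Avruch peaks (50%, 34.5 to 65.5) overlapped TEAD1, beside the 57.9% and 56.7% of placed chromosomes. That contig was singled out after the values were seen, and no contig or chromosome was left out in the same way on the placed side. TEAD1 contig peaks with a YAP peak of either antibody numbered 72, with a median width of 1132 bp and a median score of 281.4. The 202 without had medians of 385.5 bp and 74.3.

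On Un_gl000220, the contig with ribosomal DNA, all 3 lists covered nearly the same block. It ran from 101417 to 160615 in hg19 (59.2 kb), where both edges are those of TEAD1 peaks. The last YAP peaks ended at 157869 (Santa Cruz) and 157884 (Avruch). Within it, Santa Cruz peaks covered 92.2% of the bases, Avruch peaks 90.8% and TEAD1 peaks 98.8%, and 89.7% lay under peaks of all 3. The block was cut into 7 Santa Cruz, 9 Avruch and 6 TEAD1 peaks. Outside it, Santa Cruz had none on this contig, Avruch had 1 narrow peak (79765 to 80159, score 62.1) and TEAD1 had 6, with scores from 50.5 to 91.9. Those 6 TEAD1 peaks and the Avruch peak overlapped no peak of another list. The contig held 3.89% of Santa Cruz contig peaks (7 of 180), 2.74% of Avruch (10 of 365) and 4.38% of TEAD1 (12 of 274), but 23.7%, 18.5% and 22.3% of the length under them.

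The block had a similar internal layout in each list. First came a peak of 7189 bp in the Santa Cruz list (101455 to 108643), 6484 bp in the Avruch list (101509 to 107992) and 7171 bp in the TEAD1 list (101417 to 108587). A stretch of shorter peaks followed up to about 116 kb. Then came the widest contig peak of every list, with 35653 bp for Santa Cruz (116859 to 152511), 35070 bp for Avruch (116825 to 151894) and 35694 bp for TEAD1 (116870 to 152563). It ranked first by score in the Santa Cruz list, 36th in the Avruch list and shared rank 4 in the TEAD1 list, where its score of 3100 was tied among 22 peaks. No list covered 5 short gaps of the block. These were 108644 to 108732 (89 bp), 112884 to 112942 (59 bp), 116644 to 116824 (181 bp), 152564 to 152713 (150 bp) and 156873 to 157003 (131 bp).

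**Figure D3:**
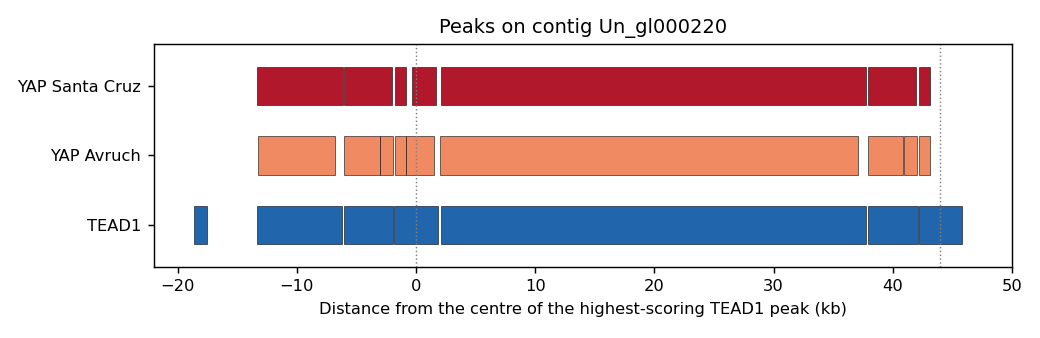
Peaks of the 3 lists on Un_gl000220 as boxes, by distance in kb (x axis) from the centre of the highest-scoring TEAD1 peak. The dotted lines mark that centre and a point 43972 bp beyond it. Farther to the left lie 1 Avruch and 5 TEAD1 peaks that are not drawn. Gaps common to all lists fall at like places, but other gaps and their widths differ. The widest is 561 bp for Santa Cruz (113910 to 114470) and 821 bp for Avruch (151895 to 152715).

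Some peaks of the block recurred after about 44 kb. Laying peak centres over each other (within 500 bp, shifts of at least 20 kb), the Santa Cruz peaks gave 2 matched pairs with a mean shift of 43970.5 bp. The Avruch peaks gave 3 matched pairs with a mean shift of 43965.8 bp. In 2 of the Avruch pairs both edges were displaced by exactly 43972 bp: 111745 to 112824 against 155717 to 156796, each 1080 bp wide, and 113040 to 113912 against 157012 to 157884, each 873 bp wide. Their scores were 484.2 and 518.8 for the first pair, and 336.6 and 380.1 for the second. The remaining Avruch pair, 108744 to 111731 against 152716 to 155666, had scores of 570.6 and 278.7. The Santa Cruz pair 113041 to 113909 against 157018 to 157869 was 869 and 852 bp wide, with scores of 357.6 and 491.9. The other Santa Cruz pair, 108733 to 112795 against 152729 to 156744, had scores of 367.8 and 285.9. Among these matched pairs, neither copy thus had the higher score throughout. Other YAP peaks had no partner. They include 114471 to 116430 of Santa Cruz (score 645.8) and 113971 to 116335 of Avruch (score 444.7).

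In the TEAD1 list the same search over the whole contig settled on 37680.6 bp, from 4 pairs whose shifts spread over 956 bp. In the YAP lists the spread was 4 bp (Santa Cruz) and 18.5 bp (Avruch). Restricted to the block, a step added after the values were seen, it gave 2 pairs with a mean shift of 43998.5 bp. The ends of the first and of the widest peak lay 43868 bp apart in the Santa Cruz list, 43902 bp apart in the Avruch list and 43976 bp apart in the TEAD1 list. As background, a read from one copy of a repeat may align to another. How such reads were placed is not stated, and whether the paired peaks are separate observations was not tested.

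Some Santa Cruz and Avruch peaks of this block had nearly the same edges and others did not. The peak 113041 to 113909 of Santa Cruz and 113040 to 113912 of Avruch differed by 1 bp at the start and 3 bp at the end. The widest peaks of these lists, in contrast, ended at 152511 and 151894, and the first ones at 108643 and 107992. Over all contigs, 13 of 176 overlapping pairs of Santa Cruz and Avruch peaks had both edges within 20 bp (7.39%, 4.37 to 12.2), against 6.02% over all chromosomes and contigs. That share is near the background. The median differences on contigs were 145.5 bp at the start and 218.5 bp at the end.

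Contig 9_gl000199_random, of chromosome 9, carried long YAP peaks and no TEAD1 peak. Santa Cruz had 32 peaks there over 76.3 kb, of which 25 were at least 1 kb wide, and Avruch had 50 over 82.9 kb, of which 29 were that wide. The widest was a Santa Cruz peak of 11048 bp (71362 to 82409, score 1005.52, rank 8 of the list). The next were 6419 bp (117627 to 124045, score 537.0) and 6231 bp (88880 to 95110, score 113.2). The widest Avruch peaks there had 5553 bp (148910 to 154462, score 478.5) and 4996 bp (103818 to 108813, score 483.6). Of the Santa Cruz peaks 28 of 32 overlapped an Avruch peak, and 34 of 50 the other way. The lists shared 59.0 kb, which is 77.3% of the Santa Cruz and 71.1% of the Avruch length. This contig gave 33.0% of all contig length under Santa Cruz peaks and 28.3% of that under Avruch peaks.

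On Un_gl000216 the YAP and TEAD1 peaks lay in different parts of the contig. TEAD1 had 37 peaks over 49.4 kb, and 32 of them ended before the first YAP base at 75390. The widest of these ran from 17639 to 26458 (8820 bp, score 978.7). The last TEAD1 peak ended at 95310, and 38 of 39 Avruch and 6 of 8 Santa Cruz peaks started after it. One peak of each YAP list overlapped TEAD1 there, sharing 0.871 kb (Santa Cruz) and 0.610 kb (Avruch). The YAP lists met each other more often there, with 7 of 8 Santa Cruz peaks overlapping Avruch and 10 of 39 Avruch peaks overlapping Santa Cruz.

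Un_gl000225 was the fullest contig of both YAP lists, with 55 Santa Cruz and 106 Avruch peaks over 44.7 and 66.7 kb. Of the 106 Avruch peaks, 66 were in the top 10% of that list by score, and of the 55 Santa Cruz peaks 6 were. Scores went up to 175.1 in the Santa Cruz, 527.2 in the Avruch and 346.8 in the TEAD1 list. Overlap with the other YAP list was found for 50 of 55 Santa Cruz and 58 of 106 Avruch peaks. TEAD1 had 25 peaks over 24.9 kb, of which 10 overlapped a Santa Cruz and 7 an Avruch peak. The last Avruch peak ended at 144684. Beyond it lay 9 TEAD1 peaks and 1 Santa Cruz peak, so the far end of the contig was nearly TEAD1 alone.

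**Figure D4:**
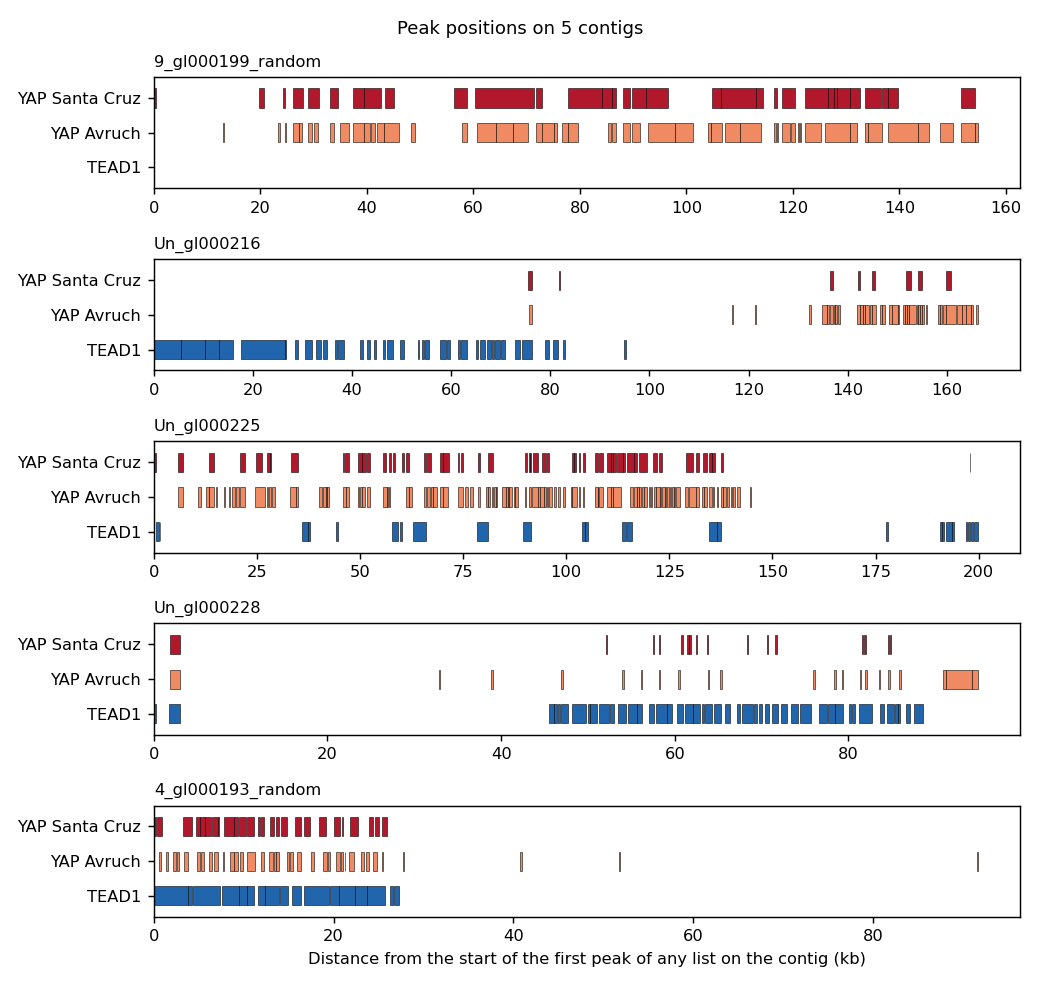
Peaks of the YAP Santa Cruz, YAP Avruch and TEAD1 lists as boxes on 5 contigs, by distance in kb (x axis) from the start of the first peak of any list on that contig. 9_gl000199_random has no TEAD1 peak, on Un_gl000216 the TEAD1 peaks lie to the left and 38 of 39 Avruch peaks to the right of the last one, and on 4_gl000193_random the TEAD1 peaks lie under all 26 Santa Cruz and 32 of 36 Avruch peaks.

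Un_gl000228 was the fullest contig of the TEAD1 list, with 45 peaks over 32.1 kb, of which 26 were in the top 10% of the list. From 70326 to 113396, 43 TEAD1 peaks covered 70.7% of 43.1 kb. YAP peaks within this block were narrow beside the contig medians of 683 bp (Santa Cruz) and 425 bp (Avruch). There were 15 Santa Cruz peaks of at most 254 bp with scores up to 96.0. Avruch had 15 of at most 220 bp with scores up to 97.0. On placed chromosomes the median widths were 164 bp (Santa Cruz) and 149 bp (Avruch), and the median scores 58.8 and 63.5. A TEAD1 peak was met by all 15 Santa Cruz and by 13 of 15 Avruch peaks, in a block of which 70.7% lay under TEAD1 peaks. The strongest Avruch peak of the contig lay beyond the last TEAD1 peak (116024 to 119042, score 693.2) and overlapped no peak of another list.

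TEAD1 coverage on Un_gl000228 recurred at even steps. Shifted against itself by 1500 to 6000 bp, it met its own coverage best at 3310 bp, where 78.3% of the bases were covered again. Looking near multiples of that shift, it did so at 6610 bp (77.6%) and 9940 bp (74.7%). Between these, the lowest values were 59.8% at 4910 bp and 57.2% at 8250 bp, and the median over shifts of 1.5 to 12 kb was 64.9%. The 16 Santa Cruz peaks, which covered 3.70 kb, had their best shift up to 6000 bp at 3280 bp (19.5%). The 21 Avruch peaks had theirs at 1500 bp (43.3%), the smallest shift searched, which cannot show whether they shared the TEAD1 step. Their widest peak (116024 to 119042, 3019 bp) lay beyond the last TEAD1 peak and overlays itself at that shift. Avruch peaks within the TEAD1 block were not searched alone. These shifts describe peak positions, and the sequence of the contig was not used here. Other contigs with at least 10 peaks of a list, apart from Un_gl000220, were searched in the same way. For example, TEAD1 on Un_gl000216 gave 4450 bp (67.7%, median 66.3%). Avruch on 4_gl000193_random gave 4210 bp (56.3%, median 30.8%). Only Un_gl000228 is described in full.

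**Figure D5:**
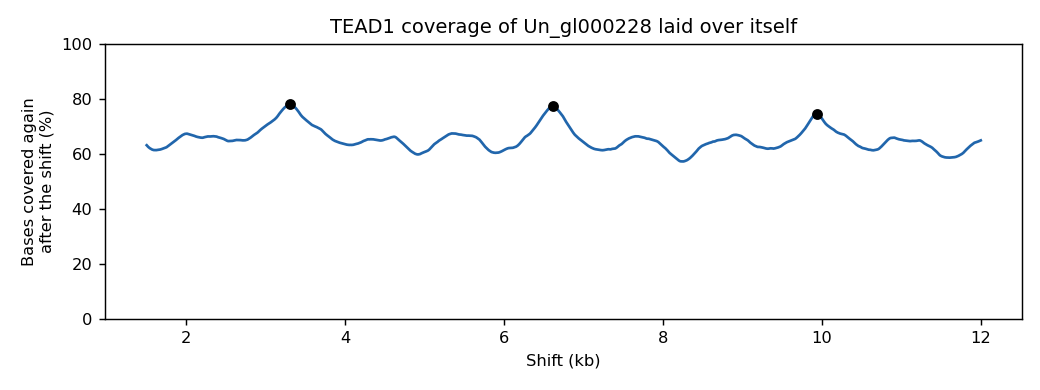
Share of TEAD1-covered bases on Un_gl000228 that are covered again after a shift (y axis, percent), by the shift in kb (x axis). The points mark 3310, 6610 and 9940 bp, with 78.3%, 77.6% and 74.7%.

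On 4_gl000193_random, of chromosome 4, the 3 lists met in 1 stretch. TEAD1 had 17 peaks from 78197 to 105505 that covered 91.4% of it, with scores from 50.2 to 809.3. The first of them was the widest (78197 to 81952, 3756 bp, score 809.3). All 26 Santa Cruz peaks lay from 78267 to 104182 and overlapped TEAD1, and so did 32 of 36 Avruch peaks. Between the antibodies, 20 of the 26 and 21 of the 36 overlapped. The shared length was 7.17 kb, or 48.9% of the Santa Cruz and 61.0% of the Avruch length, although 97.6% and 90.6% of these lay under TEAD1 peaks.

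At the start of Un_gl000224 the lists covered the same 19 kb. Santa Cruz had 5 peaks from 2 to 19404, of which the strongest ran from 3259 to 8678 (score 587.2, rank 19). Avruch had 9 peaks from 7 to 19329, with the strongest from 3244 to 7942 (score 926.8, also rank 19). TEAD1 had 3 peaks there and 1 weak peak at 56557. The first TEAD1 peak, 8645 bp wide with a score of 1106.85, began at -31, before the first base of the contig. Santa Cruz and Avruch shared 14.4 kb, which is 99.1% of the Santa Cruz and 82.2% of the Avruch length. TEAD1 peaks covered 99.6% and 91.0% of these lengths.

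Some contigs carried a short site common to the 3 lists, at which each list had 1 peak of under 2 kb. They were picked after their values were seen. On Un_gl000214, Santa Cruz had 64116 to 65766 (score 164.0), Avruch 64060 to 65745 (score 1551.35, rank 6 of the list) and TEAD1 64036 to 65931 (score 1922.05, rank 71). On Un_gl000222 the peaks were 83648 to 84835 (score 381.0), 83994 to 84837 (score 389.2) and 83621 to 84908 (score 854.9). On Un_gl000228, away from the block, they were 26606 to 27764 (score 546.8), 26624 to 27843 and 26486 to 27847 (score 1558.6). Starts differed by at most 80, 373 and 138 bp at these 3 sites, and ends by at most 186, 73 and 83 bp. A further common site on Un_gl000235 ranked lower in each list than those 3, with Santa Cruz at 1919 to 2450 (score 98.0), Avruch at 1927 to 2384 (score 102.1) and TEAD1 at 1530 to 2518 (score 394.2).

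The remaining contigs with peaks of all 3 lists differed in how far the lists met. Away from the site described above, Un_gl000214 had further common peaks between 116 and 134 kb. There the widest TEAD1 peak ran from 128377 to 132707 (4331 bp, score 451.3), and the widest Santa Cruz peak from 132226 to 134085 (1860 bp, score 149.7). TEAD1 had 10 peaks on the contig, which were met by each of the 7 Santa Cruz peaks and by 18 of the 28 Avruch peaks. On Un_gl000243, TEAD1 had its strongest of 4 peaks at 19818 to 22266 (score 702.9). It covered the strongest of 8 Avruch peaks (20238 to 21670, score 523.4) and the weaker of 2 Santa Cruz peaks (21161 to 21681, score 57.9). On Un_gl000217, with 3 Santa Cruz, 5 Avruch and 12 TEAD1 peaks, 1 peak of each YAP list overlapped TEAD1, and the strongest TEAD1 peak (47494 to 48856, score 296.5) overlapped neither YAP list.

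On 4 contigs the lists were present without meeting. They were 17_gl000205_random (2 Santa Cruz, 2 Avruch and 5 TEAD1 peaks), 4_gl000194_random (1, 2 and 13), 7_gl000195_random (4, 6 and 5) and Un_gl000227 (1 in each list). Scores there reached 67.9 in the Santa Cruz, 84.4 in the Avruch and 129.6 in the TEAD1 list. A contig named by all 3 lists therefore need not carry a common site. Peaks at the lower end were the lowest-scoring ones of Santa Cruz on Un_gl000216 (81785 to 81944, score 50.02), of Avruch on Un_gl000228 (80856 to 80984, score 50.19) and of TEAD1 on 1_gl000191_random (5349 to 5679, score 50.2). The narrowest were 97 bp for Santa Cruz on 19_gl000208_random, 70 bp for Avruch on 4_gl000193_random and 139 bp for TEAD1 on Un_gl000223.

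On 19_gl000208_random, of chromosome 19, Santa Cruz had 5 peaks and the other lists none. The last of them (88236 to 89257, 1022 bp, score 2108.13) was second in its list, whereas the other 4 had scores from 51.1 to 59.2. Peaks of TEAD1 on 1_gl000191_random (11 peaks, highest score 422.4), 4_gl000194_random (13 peaks, 129.6) and 19_gl000209_random (6 peaks, 177.2) overlapped no YAP peak. On 9_gl000200_random 1 of 7 TEAD1 peaks overlapped an Avruch peak, and on 1_gl000192_random 2 of 11 did. Their median widths were between 296 and 355 bp, near the 274 bp of TEAD1 peaks on placed chromosomes. With 1 library per antibody, antibody and library cannot be told apart.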

How the data were processed

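ChIP-seq libraries of H69 cells were made with IgG, 2 YAP antibodies and a TEAD antibody. Per the submitters' processing notes, reads were aligned with Bowtie2 to hg19. The deposited lists (5 columns, no header) name MACS in their peak names, with version, settings and control not given in the sources used here. Each peak's score is deposited as the authors' value. Depth is not given.

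Starts are printed counted from 1. Shares have Wilson intervals at the 95% level (scipy 1.17.1, Python 3.11.15). Overlap needs 1 bp, a wide peak 1 kb. With 1 library per antibody no test was made. Overlap and shift functions were tested on simulated data. Described were Un_gl000220 and each contig with peaks in all 3 lists. Peaks were named by width (5 widest), score (3 highest, and the lowest) and the narrowest. The members, contigs and settings were chosen with earlier results of these data known. The shift on Un_gl000228 was added after the values were seen (1.5 to 12 kb in 10 bp steps, best shift sought up to 6000 bp). So were the block of Un_gl000220, positions on Un_gl000216 and Un_gl000225, width classes of overlap, peak edges and gaps.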

Additional observations from a re-analysis of the deposited data

How the results depend on the processing

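Of 93 alternative values, 27 stayed within the 95% interval of the main value and 66 moved out of it. Intervals over base pairs are very narrow, and different thresholds count different things. For each of the following, values are given for Santa Cruz, Avruch and TEAD1 in this order. Contig peaks were 10.9%, 5.33% and 0.767% of the higher-scoring 50% of each list, 4.37%, 2.58% and 0.396% with Un_gl contigs alone, 2.91%, 1.03% and 0.163% with _random contigs alone, and 5.17%, 2.59% and 0.468% without the fullest contig (Un_gl000225, Un_gl000225, Un_gl000228), an alternative added after the values were seen. Their share of length under the same first 3 settings was 23.6%, 16.1% and 2.41%, then 11.9%, 7.89% and 1.40%, then 8.43%, 3.98% and 0.295%, and without Un_gl000220 it was 16.3%, 9.90% and 1.33%. Peaks of at least 500 bp made up 61.7%, 43.0% and 50.4% of contig peaks, and peaks of at least 2 kb 11.1%, 7.40% and 8.76%. Among the higher-scoring 50%, peaks of at least 1 kb made up 23.3% for Avruch and 30.9% for TEAD1. Contig peaks in the top 5% by score were 17.2%, 29.0% and 19.0%, and in the top 10% 30.6%, 43.8% and 27.7%. With gaps of at most 1 kb joined, Un_gl000220 held 1.10% of Santa Cruz and 1.41% of Avruch stretches.

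With 50% of both peaks required, the shares were 50.6% for Santa Cruz with Avruch, 12.2% for Santa Cruz with TEAD1, 24.9% for Avruch with Santa Cruz, 4.38% for Avruch with TEAD1, 8.03% for TEAD1 with Santa Cruz and 5.84% for TEAD1 with Avruch. With windows of 200 bp around peak centres they were, in this order, 46.7%, 20%, 22.7%, 7.40%, 12.8% and 9.85%. These 2 rules were applied to contig peaks only. Whether the shares on contigs exceed those of whole lists under them was not tested. Peaks under 1 kb alone, added after the values were seen, moved 4 of them: 61.3% (Santa Cruz with Avruch), 35.0% (Avruch with Santa Cruz), 9.86% (TEAD1 with Santa Cruz) and 11.7% (TEAD1 with Avruch). Without Un_gl000220, the shared length in the same order of pairs was 74.6%, 27.4%, 55.0%, 20.6%, 22.3% and 22.7%, where it had been 80.0%, 44.5%, 62.9%, 35.1%, 36.9% and 36.9%. This 1 contig thus moved shared length with TEAD1 by over 1.5 times. By shared base pairs, the best shift on Un_gl000220 was 20000 bp in every list, the smallest shift searched, as the widest peak overlays itself there. For TEAD1 it was 43998.5 bp with peaks of the block alone, an alternative added after the values were seen. No paired analysis was possible because each antibody has 1 library. Depth is unknown, so a contig without peaks of a list cannot be told from one sequenced too thinly.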

Other observations

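Some peaks reached the first bases of a contig. In the TEAD1 list 2 contig peaks began before the first base, on Un_gl000224 at -31 and on Un_gl000216 at -5 (to 5376, 5382 bp wide, score 127.1). On placed chromosomes 0 TEAD1 peaks did so. Avruch had a peak from base 1 of Un_gl000235 and one from base 7 of Un_gl000224. Santa Cruz had one from base 2 of Un_gl000224 and one from base 10 of Un_gl000225. A TEAD1 peak began at base 11 of Un_gl000239.

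Peak widths on unlocalised (_random) and unplaced (Un_gl) contigs are given without a test. TEAD1 median widths were 366.5 bp on 80 _random and 609 bp on 194 Un_gl peaks, with 10 and 51 peaks at least 1 kb wide. Santa Cruz medians were 696 bp (72 peaks) and 660 bp (108 peaks), with 28 and 33 peaks of 1 kb or more. Avruch medians were 428 bp (104 peaks) and 425 bp (261 peaks), with 29 and 36 such peaks. By share, peaks of 1 kb or more were thus more frequent on Un_gl contigs for TEAD1 and on _random contigs for both YAP lists. Single contigs carried the _random values. 9_gl000199_random held 25 of the 28 such Santa Cruz peaks and all 29 of Avruch, and 4_gl000193_random all 10 of TEAD1. These shares thus do not describe _random contigs in general.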
